A study of Mus musculus with 6 samples.

Results

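The baseline RNA content of the retina and retinal pigment epithelium (RPE) was described in untreated 5XFAD mice, which model Alzheimer's disease through transgenes. A gene was included when its FPKM (fragments per kilobase of transcript and of sequenced fragments, a level corrected for gene length and sequencing depth) was above 0 in all 3 libraries of the untreated control group. This rule kept 17152 genes of the 18964 that were listed in at least 1 control library and of the 19401 listed in the whole series. The rule fixed that RNA was detected in every pool, and levels, ranks and shares were otherwise free to vary. It also removed genes at 0 in some pools only, so the spread described below is that of the genes kept.

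The 5XFAD mice carried mutant human APP together with a further human transgene, each driven by the mouse Thy1 promoter, in the hemizygous state on a mixed B6SJL background. Control mice drank water containing only the vehicle, Tween 80, and were 9 months old when the eyes were taken. Every library came from pooled tissue, with 1 retina and its RPE taken from each of 5 to 6 animals, so the 3 control libraries are separate pools and differences between single mice inside a pool cannot be seen. The other 3 libraries of the series came from mice given efavirenz, a drug that at low dose activates the brain cholesterol 24-hydroxylase CYP46A1, and were not used here. With 1 group of 3 pools there was no contrast to test, and all values below are descriptions with their spread over pools (SD, n = 3).

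The mouse retina is dominated by rods, the photoreceptors of dim light, whose outer segments are packed with visual pigment and the enzymes of phototransduction. Cones serve daylight vision, bipolar, horizontal and amacrine cells process the signal, ganglion cells send it to the brain, and Müller glia span the tissue. The RPE is a single pigmented layer behind the photoreceptors that recycles the chromophore and takes up shed outer segments. Photoreceptor genes are known to be switched on by the homeodomain factor CRX together with the rod factor NRL.

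The promoters of several abundant photoreceptor genes are shown here because the letters GGATTA, the reverse complement of the CRX core motif TAATCC, lie close to their annotated starts. The 150 bases before the transcription start are given for 5 genes, from RefSeq sequence of build GRCm38.p6, read 5′ to 3′ on the strand of the gene with the motif in capitals. The stretches are Sag at chr1:87803530-87803679 (plus strand), Rbp3 at chr14:33953853-33954002 (plus strand), Guca1a at chr17:47400607-47400756 (minus strand), Gngt1 at chr6:3993858-3994007 (plus strand) and Crx at chr7:15879956-15880105 (minus strand).
Sag: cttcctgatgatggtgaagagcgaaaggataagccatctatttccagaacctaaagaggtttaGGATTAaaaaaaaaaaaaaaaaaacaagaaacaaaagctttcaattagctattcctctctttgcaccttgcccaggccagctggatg
Rbp3: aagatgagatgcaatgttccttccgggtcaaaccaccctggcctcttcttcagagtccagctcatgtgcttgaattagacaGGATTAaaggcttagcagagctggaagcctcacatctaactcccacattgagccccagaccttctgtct
Guca1a: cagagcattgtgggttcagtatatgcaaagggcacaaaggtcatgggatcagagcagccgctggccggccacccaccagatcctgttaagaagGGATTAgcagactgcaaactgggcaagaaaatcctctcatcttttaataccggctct
Gngt1: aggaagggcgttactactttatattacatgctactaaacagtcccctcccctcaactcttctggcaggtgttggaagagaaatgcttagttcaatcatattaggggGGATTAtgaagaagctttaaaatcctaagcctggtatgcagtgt
Crx: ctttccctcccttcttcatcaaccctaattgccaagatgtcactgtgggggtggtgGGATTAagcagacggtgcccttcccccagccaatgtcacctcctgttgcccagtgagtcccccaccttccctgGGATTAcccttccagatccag

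Measured from the start of the motif to the transcription start, the match lay 87 bases upstream in Sag, 69 in Rbp3, 57 in Guca1a and 44 in Gngt1, whereas Crx itself held 2 matches, 94 and 21 bases upstream. Of the 54 genes in the rod, cone and shared photoreceptor lists, 39 had a promoter window of 250 bases before to 50 bases after the start, and 15 of these windows (38.5%) contained TAATCC on either strand. Among all 27025 genes with such a window the share was 7.16%, and among the detected genes with an Entrez identifier it was 5.75%. Within the last 100 bases before the start the motif was found in 13 of the 39 photoreceptor windows (33.3%) and in 2.27% of all windows. The 100 most abundant genes with an Entrez identifier include photoreceptor genes counted above, such as Sag, Rbp3, Guca1a, Gngt1 and Crx. The motif was present in 17.6% of the windows of these 100, a share not given without the photoreceptor genes. It was present in 7.70% for ranks 101 to 1000 and in 4.87% to 6.06% in the 3 groups of lower rank. These are counts of letters in a window, not of bound sites. No match in a window says only that these letters are not there. Windows for Gnat1, Pde6g, Rcvrn and Reep6 were not analysed here.

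The 3 control libraries held 23455201 to 24590307 expected counts and listed 17979 to 18100 genes each. The included genes carried at least 99.95% of the summed FPKM of every library, whereas the 1812 genes left out (835 listed in 2 libraries and 977 in 1) had a median level of 0.02 FPKM. The most abundant gene left out was Crygc, a lens crystallin, which was listed at 0 in control 1, at 0.17 FPKM in control 2 and at 16.9 FPKM in control 3. Of the included genes, 15722 carried an Entrez identifier, and the sequencing provider had assembled the other 1430 under BGI_novel names. The transcripts behind the gene models were 29364 RefSeq NM entries and 12653 provider entries, so RefSeq non-coding RNAs were not among them.

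Expression was concentrated in few genes. Levels spanned 6.05 orders of magnitude around a median of 6.17 FPKM, and 12751 genes reached 1 FPKM in all 3 pools. The 10 most abundant genes held 11.6% ± 0.344 of the summed FPKM, the 100 most abundant held 26.2% ± 0.323 and the 1000 most abundant held 55.5% ± 0.112. Reaching 50% of the summed FPKM took 704 genes, and reaching 90% took 6198. The 20 genes at or above 1000 FPKM held 15.1%, the 6120 genes between 10 and 100 FPKM held the largest part of any band (46.2%), and the 868 genes below 0.1 FPKM held 0.0141%. Genes at the middle of the ranking, such as Rbm34 (6.29, 6.40 and 5.82 FPKM in controls 1, 2 and 3) and Ccdc51 (5.66, 6.45 and 6.40 FPKM), therefore lay more than 3 orders of magnitude below the top.

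**Figure D1:**
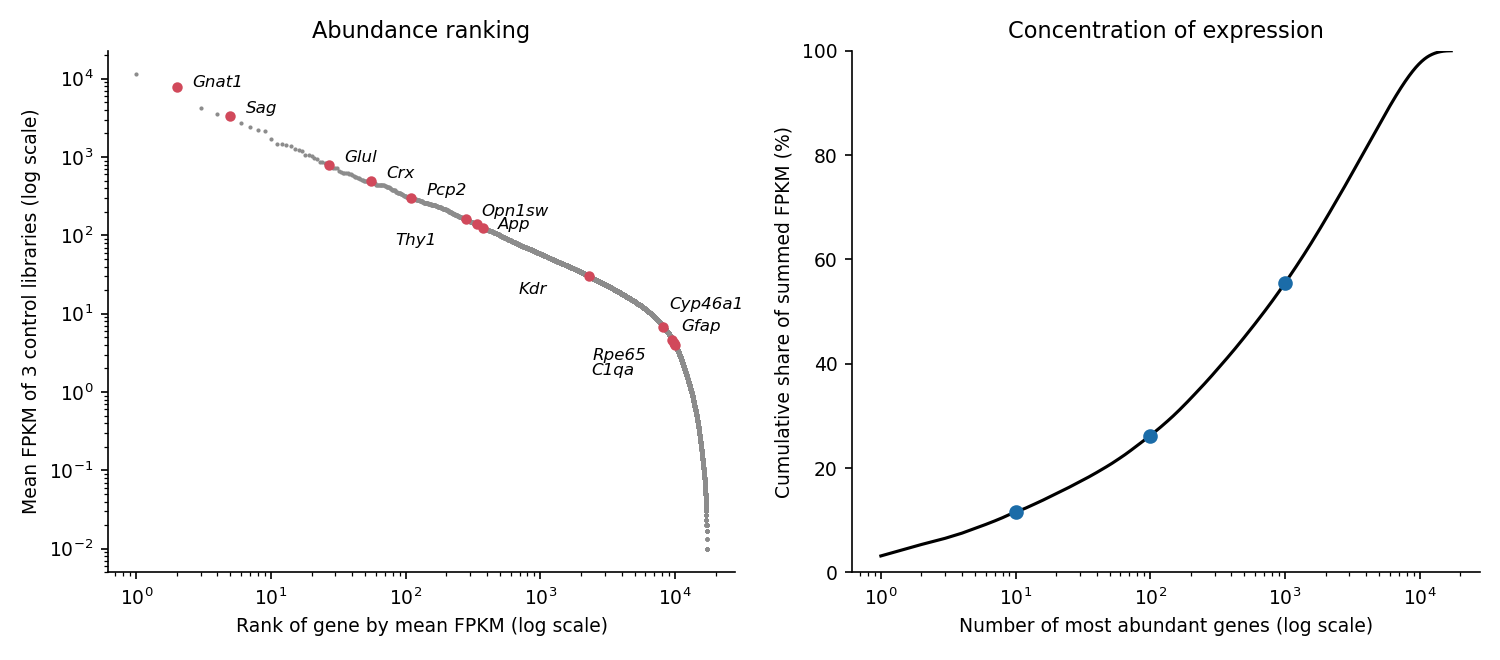
Left, mean FPKM over the 3 control libraries (log scale) against the rank of each of the 17152 genes (log scale), with named genes marked in red. Right, cumulative share of summed FPKM (%) against the number of most abundant genes (log scale), with points at 10, 100 and 1000 genes, which held 11.6%, 26.2% and 55.5%. Gnat1 and Sag stand near the top left, and the curve bends downward after about the middle of the ranking.

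Gnat1, the rod transducin alpha subunit that couples the visual pigment to its phosphodiesterase, was among the most abundant genes in every pool, with 7710, 8157 and 7674 FPKM in controls 1, 2 and 3. Control 2 was the highest.

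Ranks 3 and 4 belonged to 2 provider regions of 6822 and 8027 bases with protein matches to mitochondrially encoded subunits, cytochrome c oxidase subunit I for BGI_novel_G001694 (4263, 4351 and 4135 FPKM) and NADH dehydrogenase chain 4 for BGI_novel_G001695 (3567, 3647 and 3405 FPKM). Both are parts of the respiratory chain that makes ATP. No gene was listed under a mitochondrial symbol, and whether other provider regions hold mitochondrial RNA is not reported here. These 2 regions held 2.18% ± 0.0852 of the summed FPKM. Of the expected counts, which are not corrected for length, they held 5.74%, 5.86% and 5.52% in controls 1, 2 and 3.

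Sag, the rod arrestin that shuts off the light response, followed at 3111, 2944 and 3825 FPKM. Its highest pool was control 3, and its coefficient of variation (CV, the SD as a percent of the mean) of 14.2% was far above the 3.43% of Gnat1. Pde6g, the inhibitory subunit of the rod phosphodiesterase, had 2456, 2546 and 2246 FPKM. Aldoa, the glycolytic enzyme aldolase A, was close to it at 2329, 2283 and 2063 FPKM, and the 2 genes' ranges overlapped. Prph2, a tetraspanin that shapes the rim of outer segment discs, had 2219, 2081 and 2142 FPKM, again within the range of Aldoa. Its partner Rom1 lay lower, at 1181, 1179 and 1216 FPKM, and was among the steadiest of the abundant genes with a CV of 1.72%.

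Of the 25 most abundant genes, 14 were on the rod or shared photoreceptor lists. Besides those above they included Gnb1 (transducin beta, which other cells also express), Pdc (phosducin, which binds transducin beta-gamma), Unc119 (a chaperone for lipidated photoreceptor proteins), Rbp3 (the retinoid-binding protein of the space between photoreceptors and RPE), Guca1a (an activator of photoreceptor guanylate cyclase), Rcvrn (recoverin, a calcium sensor), Gngt1 (rod transducin gamma) and Reep6 (a rod membrane-shaping protein). Pdc varied most of these, with 1365, 1696 and 1291 FPKM, and control 2 was the highest. Rcvrn varied least, with 935, 938 and 918 FPKM.

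The glycolytic enzymes Gapdh, Pkm and Eno1 and the housekeeping genes Ubb (ubiquitin), Eef1a1 (a translation elongation factor) and Tma7 (a translation-associated protein) were also among the 25. Below the first 25, genes with the highest levels that were on no list included Cst3 (cystatin C, a secreted protease inhibitor, 901, 761 and 801 FPKM), Ckb (brain creatine kinase, 775, 684 and 784 FPKM), Atp1b2 (a sodium pump beta subunit, 663, 777 and 740 FPKM) and Cpe (carboxypeptidase E, 650, 597 and 623 FPKM). Atp1b2 was lowest in control 1, and the other 3 were lowest in control 2.

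RNA of marker genes was summed by cell class to see how the levels divided between the cells of the tissue. A share of summed FPKM is a share of RNA and not of cells, because fewer cells of a type and less RNA per cell cannot be told apart in bulk tissue, and it also rises with the number of genes on a list. All 15 rod genes were included and held 8.62%, 9.10% and 8.75% of the summed FPKM in controls 1, 2 and 3 (8.83% ± 0.247). The 26 genes used by both rods and cones held 3.77% ± 0.0632. With the cone genes, the photoreceptor lists reached 12.9% ± 0.315 from 54 genes, against 14.7% ± 0.583 for all 242 listed genes of the class lists.

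Within the rod list the lowest level was that of Esrrb, an orphan nuclear receptor of rods (121, 148 and 120 FPKM). The catalytic phosphodiesterase subunits Pde6b (740, 717 and 736 FPKM) and Pde6a (611, 636 and 614 FPKM) lay far below their inhibitory partner Pde6g and did not overlap each other. The rod channel subunits were closer, Cngb1 having 348, 348 and 355 FPKM and Cnga1 299, 304 and 282 FPKM. Slc24a1, the rod sodium-calcium exchanger, had 250, 269 and 260 FPKM. The rod-determining factor Nrl had 611, 556 and 600 FPKM and its target Nr2e3, which represses cone genes, 302, 311 and 331 FPKM. The median CV over rod genes was 3.97%, near the 4.39% of all included genes from 100 to 1000 FPKM, where most rod genes lie.

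Genes shared by rods and cones covered most other steps of the visual response. The guanylate cyclase activators Guca1a (1001, 877 and 1004 FPKM) and Guca1b (500, 446 and 555 FPKM) were both lowest in control 2 and were far above the cyclases they act on, Gucy2e (88.0, 90.7 and 89.0 FPKM) and Gucy2f (31.9, 33.9 and 31.4 FPKM). Grk1, a photoreceptor receptor kinase that helps end the light response, had 227, 237 and 226 FPKM and Rgs9, which speeds transducin shut-off, 214, 233 and 217 FPKM. These 2 overlapped. Abca4, the retinoid flippase of outer segments, had 204, 216 and 219 FPKM and Rdh12, a photoreceptor retinol dehydrogenase, 213, 202 and 202 FPKM. Tulp1, which is needed for transport to the outer segment, had 603, 640 and 606 FPKM.

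Cone genes held 0.285% ± 0.0115. Opn1sw, the short-wavelength cone opsin, had 149, 169 and 168 FPKM and stood above the medium-wavelength opsin Opn1mw, with 88.5, 85.1 and 86.4 FPKM, without overlap. Pde6h, the inhibitory subunit of the cone phosphodiesterase, had 154, 158 and 173 FPKM, Gnb3, a transducin beta subunit of cones and ON bipolar cells, 200, 206 and 218 FPKM, and Arr3, cone arrestin, 99.5, 95.3 and 118 FPKM. Control 3 was highest for these 3 genes. Gnat2, the cone transducin alpha subunit, had 81.5, 86.1 and 86.1 FPKM, close to Opn1mw. The cone channel genes were low, with Cngb3 at 5.45, 5.51 and 5.65 FPKM and Cnga3 at 3.80, 3.73 and 4.07 FPKM.

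The neurons that follow photoreceptors contributed less. Bipolar genes held 0.298% ± 0.0145, a share that overlapped that of the cone genes between pools, although by expected counts bipolar genes held 0.231% and cone genes 0.173%. They were led by Pcp2 (a G protein modulator of rod and ON bipolar cells, 317, 304 and 276 FPKM) and Gng13 (290, 273 and 256 FPKM), both lowest in control 3. Their signalling genes were lower. Prkca, the classical rod bipolar kinase, had 49.3, 48.9 and 47.3 FPKM, Trpm1, the ON bipolar channel, 48.3, 48.3 and 48.1 FPKM, and Grm6, the glutamate receptor upstream of it, 29.5, 28.0 and 25.9 FPKM. Trpm1 had a CV of only 0.323%.

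Amacrine genes held 0.169% ± 0.00458. Calb2 (calretinin) led them at 241, 230 and 221 FPKM, followed by Gad1, which makes GABA (97.1, 87.0 and 86.7 FPKM), the eye field factor Pax6 (83.7, 77.3 and 81.0 FPKM) and the glycine transporter Slc6a9 (67.3, 67.1 and 72.2 FPKM). Markers of rare amacrine types were detected in all pools, among them Chat of starburst cells (4.28, 4.80 and 4.95 FPKM) and Th of dopaminergic cells (2.92, 2.93 and 2.70 FPKM). Horizontal cell genes held 0.00919% ± 0.000495, most of it from Calb1 (26.3, 22.5 and 23.4 FPKM), with Lhx1, a factor that positions these cells, at 1.69, 1.79 and 1.72 FPKM.

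Ganglion cell genes held 0.144%, 0.148% and 0.133% in controls 1, 2 and 3. Control 3 was the lowest pool for 11 of the 13 genes, whereas it was the lowest for 30.9% of all included genes. Nefl, the light neurofilament, had 150, 150 and 136 FPKM, Thy1 140, 142 and 134 FPKM and Sncg, gamma-synuclein, 117, 117 and 103 FPKM. Control 3 was below both others for each. The ganglion cell factors Pou4f1 (7.96, 8.01 and 7.63 FPKM) and Pou4f2 (3.39, 3.63 and 3.26 FPKM) showed the same order at smaller size. The melanopsin gene Opn4 was an exception, with 2.65, 2.56 and 3.13 FPKM. Lens RNA, described below, was highest in the same pool. Its part in the lower values was not tested.

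Müller glial genes held 0.647% ± 0.0200, more than any inner neuron list. Glul, the glutamine synthetase that clears glutamate, had 813, 801 and 775 FPKM, and the secreted lipoprotein Apoe had 470, 396 and 444 FPKM. Clu, the chaperone clusterin, had 357, 353 and 429 FPKM and was highest in control 3, as was the intermediate filament gene Vim with 57.7, 45.0 and 84.9 FPKM. Control 3 was also the pool with the most lens RNA, and the part of lens cells in these values was not tested. Rlbp1, the retinaldehyde-binding protein of Müller glia and RPE, had 232, 209 and 220 FPKM, and the water channel Aqp4 31.1, 31.1 and 29.7 FPKM. Gfap, which astrocytes express and which Müller glia raise under stress, was low at 4.15, 3.16 and 4.60 FPKM. The 4 astrocyte genes held 0.00276% ± 0.000300.

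Microglial genes held 0.0110% ± 0.000335 from 15 genes, of which 8 reached 1 FPKM in all pools. Among them were the complement genes C1qa (5.00, 4.91 and 4.05 FPKM), C1qb (3.97, 3.44 and 4.83 FPKM) and C1qc (4.09, 3.95 and 4.04 FPKM). P2ry12, a purinergic receptor of resting microglia, had 1.87, 1.60 and 1.35 FPKM and Trem2, a receptor linked to the disease-associated state, 1.09, 0.66 and 0.83 FPKM. Endothelial genes held 0.0196% ± 0.00106, led by Kdr, the VEGF receptor 2 gene, at 31.7, 29.5 and 28.7 FPKM. The tight junction gene Cldn5 was at 8.53, 6.88 and 6.54 FPKM, and pericyte and smooth muscle genes held 0.00646% ± 0.000348.

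Cells from outside the neural retina differed in how well they were represented. Oligodendrocyte genes held 0.00569% ± 0.000189, with Mbp, a myelin protein, at 8.13, 8.58 and 7.98 FPKM while Mog, Mobp and Opalin were each at 0 in at least 1 pool. Lymphocyte genes held 9.60e-05% ± 4.08e-05, and Cd3e, Cd3d and Ms4a1 were at 0 in at least 1 pool. Other myeloid genes held 0.00108% ± 0.000236, with Ccr2 at 0 in control 3. Skeletal muscle genes held 0.00182% ± 0.000105, with the myosins Myh2, Myh4 and Myh13 and the troponin Tnni2 at 0 in at least 1 pool, and fibroblast genes held 0.00172% ± 0.000627, with Lum at 0 in control 2.

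**Figure D2:**
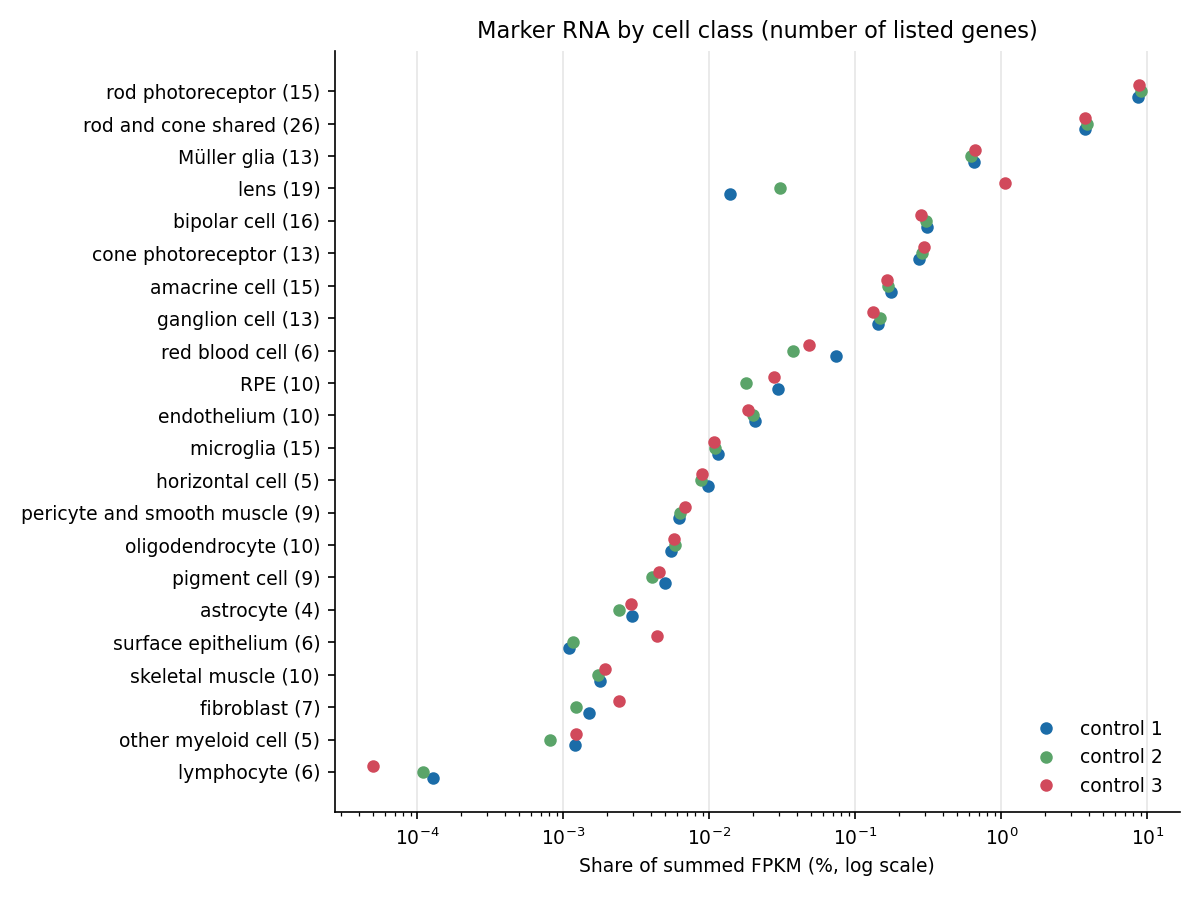
Share of summed FPKM (%, log scale) of each cell class list in each control library, with the number of listed genes in brackets and 1 point per library. The rod list is at the top with 8.62% to 9.10%, most classes have 3 nearly coincident points, and the lens list spreads from 0.0138% in control 1 to 1.07% in control 3.

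RPE markers were present in every pool at low levels, which does not show how much RPE was collected. The list of 10 genes held 0.0297%, 0.0177% and 0.0279% in controls 1, 2 and 3. Its most abundant gene was Krt18, a keratin of simple epithelia in general, with 46.1, 31.0 and 41.9 FPKM, and without Krt18 and the keratin Krt8 the other 8 genes held 0.0167%, 0.00892% and 0.0161%. Control 2 was lowest for 9 of the 10 genes, whereas it was lowest for 38% of all included genes. Rpe65, the isomerase that regenerates the visual chromophore, had 4.65, 2.35 and 5.69 FPKM. Ttr, the retinol carrier transthyretin, had 31.2, 14.5 and 29.0 FPKM. Rgr, an opsin of RPE and Müller glia, had 8.12, 3.54 and 6.44 FPKM, and Rdh5, the RPE retinol dehydrogenase, 10.5, 6.69 and 9.77 FPKM. In all 4 genes control 2 was separated from the other pools, and the ratio of control 2 to the mean of the other pools had a median of 0.576 over the list. Best1, an RPE chloride channel, was the exception at 0.32, 0.34 and 0.22 FPKM.

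Of the pigment cell genes, which the RPE shares with melanocytes of the choroid, Tyrp1 (1.27, 0.33 and 1.37 FPKM), Mlana (1.21, 0.21 and 0.82 FPKM), Oca2 (0.34, 0.10 and 0.40 FPKM) and Gpr143 (0.18, 0.03 and 0.21 FPKM) were also lowest in control 2. Slc24a5, a pigment cell exchanger that was much more abundant than the rest of that list, did not follow them, with 10.9, 11.1 and 10.6 FPKM. The pigment list as a whole held 0.00453% ± 0.000449, and 5 of its 9 genes were lowest in control 2. Red blood cell genes were highest in control 1 and lowest in control 2 for 5 of 5 included genes, against 36.3% highest in control 1 and 38% lowest in control 2 among all included genes, with Hba-a1 at 108, 57.1 and 90.6 FPKM and Hbb-bs at 88.1, 46.0 and 50.5 FPKM. The alpha-globin copies Hba-a1 and Hba-a2 are nearly identical, and reads may be divided between them. RPE and red blood cell RNA were thus lowest in the same pool, and any common source was not tested.

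Lens RNA set control 3 apart. The list held 0.0138%, 0.0304% and 1.07% of the summed FPKM in controls 1, 2 and 3, which is a 77.1-fold difference between the highest and lowest pools, and all 18 included lens genes were highest in control 3, against 33.3% of all included genes. Cryaa, the alpha A crystallin, had 16.4, 35.3 and 1341 FPKM and Crybb2, a beta crystallin, 13.3, 32.7 and 1239 FPKM. These genes ranked among the 100 most abundant by mean level only through control 3. The structural lens genes that are not crystallins behaved alike, with the membrane protein gene Lim2 at 0.20, 0.21 and 15.04 FPKM, the lens aquaporin Mip at 0.73, 0.62 and 19.2 FPKM and the beaded filament gene Bfsp1 at 0.14, 0.38 and 11.8 FPKM. The ratio of control 3 to control 2 had a median of 31.6 over the 18 genes, with a range from 10.7 for Bfsp2 to 132 for Gja3, a gap junction gene that had only 0.03 FPKM in control 2.

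Control 2 was in turn above control 1 for most lens genes, with a median ratio of 1.91, including 2.15 for Cryaa and 2.46 for Crybb2, although Mip and Gja3 were lower in control 2. Cryab, the small heat shock protein alpha B crystallin that is expressed in lens and elsewhere, had 43.4, 48.8 and 565 FPKM. It alone moved the heat shock list, which held 0.459%, 0.464% and 0.603% with it and 0.447%, 0.451% and 0.447% without it. The lens list took 1.07% of control 3. The mean rod share was 8.83% with the lens genes and 8.86% after they were left out, a setting chosen after the data were seen. RNA of genes outside the lens list was not removed, and the effect of lens cells on other classes was not tested.

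Control 3 also had the highest level of all 13 immediate-early genes, which encode factors induced within minutes by neuronal activity or stress, against 33.3% of all included genes. The list held 0.0470%, 0.0452% and 0.0836% in controls 1, 2 and 3. Egr1 had 9.96, 10.7 and 54.4 FPKM, Fos 9.30, 7.21 and 26.0 FPKM and Fosb 0.89, 1.05 and 4.95 FPKM. Nr4a1 had 14.0, 12.9 and 31.4 FPKM and Junb 14.6, 14.4 and 30.2 FPKM. Controls 1 and 2 lay close together for these genes, with ratios of control 2 to control 1 between 0.775 and 1.19 over the list, while the ratio of control 3 to their mean ran from 1.18 for Atf3 to 5.28 for Egr1. The retinal stress list, which holds Gfap, Lcn2 and Serpina3n, was highest in control 3 for 9 of 11 included genes and held 0.0104% ± 0.00147. Lens RNA and immediate-early RNA were highest in the same pool, and whether they have a common source was not tested.

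**Figure D3:**
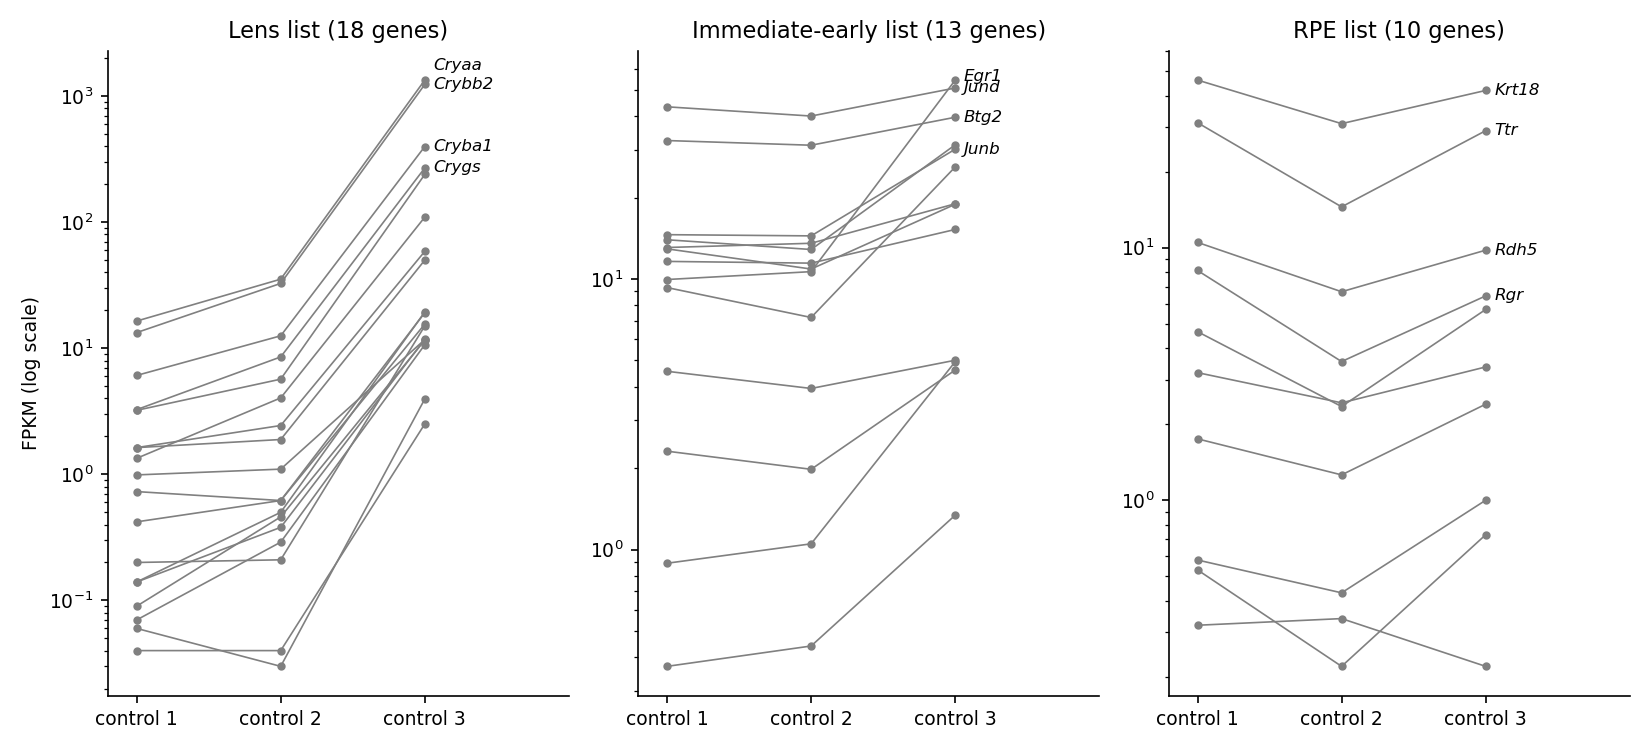
FPKM (log scale) of each included gene of the lens, immediate-early and RPE lists in controls 1, 2 and 3, with lines joining the values of 1 gene across libraries, which have no order. All 18 lens genes and all 13 immediate-early genes are highest in control 3, and 9 of 10 RPE genes are lowest in control 2.

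Among 13122 genes with a mean of at least 1 FPKM and at least 20 expected counts in the highest library, few stood more than 2-fold from both other pools. Both limits used the same pools, so a gene could pass only through the pool where it was high, as Lctl and Gja3 did in control 3. The numbers of higher genes are in part set by these limits. In control 3, 59 genes (0.45%) were higher and 20 (0.152%) lower. The 59 included 18 lens genes counting Cryab and 5 immediate-early genes. Other members of the set were Lctl, a klotho-family gene (0.02, 0.02 and 3.01 FPKM), Aldh3a1, a crystallin-like enzyme of the cornea (0.84, 1.05 and 13.8 FPKM), Nid1, a basement membrane protein (0.41, 0.38 and 3.42 FPKM), Sfrp1, a secreted WNT inhibitor (0.72, 0.56 and 3.19 FPKM), and Vit, an extracellular matrix protein (1.39, 1.14 and 5.59 FPKM). The surface epithelium list that holds Aldh3a1 took 0.00222% ± 0.00189 and 0.00113% without control 3, and its corneal keratin Krt12 went the other way with 1.47, 1.68 and 0.53 FPKM. Tecta, a gene best known from the inner ear, was far lower in control 3, with 2.57, 1.98 and 0.05 FPKM.

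In control 1, 20 genes (0.152%) were higher and 48 (0.366%) lower than in both other pools, the lower set including 9 lens genes. Some of these lens genes passed the limits only through control 3, such as Crygd with 1, 4 and 155 expected counts in controls 1, 2 and 3. Others did not rest on few counts, such as Crybb2 with 281, 658 and 25900. In control 2, 49 genes (0.373%) were higher, every one a provider region, and 12 (0.0914%) were lower, among them Ttr as the only RPE gene. Provider regions were 1430 of the 17152 included genes, and their share of the 13122 is not given. The 8 regions furthest above the other pools had 20.2 to 39 expected counts in control 2, where the limit was 20. They could pass it only through control 2. Between pools, log2 FPKM of the included genes correlated with Pearson coefficients of 0.980 to 0.982 across genes, which are not independent replicates. Of 6618 genes at or above 10 FPKM, 20 differed more than 2-fold between controls 1 and 2, 34 between controls 1 and 3 and 28 between controls 2 and 3.

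The spread between pools narrowed as abundance rose. The median CV was 43.7% below 0.1 FPKM, 25.5% from 0.1 to 1, 7.60% from 1 to 10, 4.34% from 10 to 100, 4.39% from 100 to 1000 and 3.45% at or above 1000 FPKM. The CV that counting error alone would give was 54.8%, 23.1%, 5.65%, 2.58%, 1.21% and 0.357% in the same bands. Among the genes kept, the spread below 1 FPKM was therefore near the counting error, and above 100 FPKM it was several times larger. Genes not detected in every pool were left out, which limits the spread that can be seen at low levels. The biological coefficient of variation, estimated by edgeR as the spread left after counting error, was 0.107 over 15395 genes. It was 0.0675 without control 3 and 0.102 and 0.107 without controls 1 and 2, and it was 0.0828 when the lens genes and Cryab were left out of all 3 pools.

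The steadiest genes with at least 10 FPKM included Ctbp2, whose long isoform RIBEYE builds the synaptic ribbon of photoreceptors, at 87.1, 87.1 and 87.2 FPKM. Its CV was 0.0369%. Osbp (an oxysterol-binding protein), Drosha (the nuclear microRNA-processing enzyme), Hook1, Trappc9, Edf1, Sbf2, Blcap, Tm9sf3 and Col23a1 were the others. The CVs of these genes were below the median counting error of their band, so their order carries no weight.

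Most functional lists outside the cell classes varied little between pools, the exceptions being the immediate-early, heat shock and retinal stress lists described above. The 19 glycolysis genes held 2.78% ± 0.0727, or 3.57% ± 0.152 when a GAPDH-like and an enolase-like provider region were added. Pkm, pyruvate kinase, had 1403, 1430 and 1360 FPKM and Ldha, lactate dehydrogenase A, 677, 609 and 609 FPKM. Hk2, the hexokinase of photoreceptors, had 61.0, 77.1 and 55.9 FPKM, below Hk1 at 204, 218 and 212 FPKM. Nuclear genes of the respiratory chain held 2.40% ± 0.0827 and included Atp5b (574, 565 and 553 FPKM) and Ndufa4 (406, 379 and 361 FPKM). Cytosolic ribosomal protein genes held 5.03%, 4.59% and 4.94% in controls 1, 2 and 3 and were lowest in control 2 for 69 of 82 genes, against 38% of all included genes. Both lists consist mainly of short transcripts, and by expected counts, which are not corrected for length, the ribosomal list held 1.18% and the respiratory chain list 0.757%.

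Ribbon synapse genes held 0.588% ± 0.0170. Slc17a7, the vesicular glutamate transporter of photoreceptors and bipolar cells, was the most abundant of all solute carriers at 632, 664 and 686 FPKM, and Cplx4, a photoreceptor complexin, had 255, 266 and 260 FPKM. The photoreceptor transcription factor list held 0.643% ± 0.0191. Nrl and Crx (462, 510 and 490 FPKM) led it, followed by Nr2e3 and Neurod1 (253, 269 and 251 FPKM), and Otx2, which acts above Crx, had 133, 132 and 138 FPKM. The cone factors Thrb (12.6, 13.4 and 12.5 FPKM) and Rxrg (3.68, 4.19 and 3.97 FPKM) were much lower.

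Genes of amyloid processing held 0.212% ± 0.00381. App, the amyloid precursor, had 123, 125 and 128 FPKM and ranked 372. Its homologues Aplp2 (260, 277 and 261 FPKM) and Aplp1 (129, 129 and 126 FPKM) were as high or higher. Reads were assigned to mouse genes, and whether reads of the human APP transgene fell on App cannot be told apart here. Bace1, the beta-secretase, had 32.5, 32.7 and 31.6 FPKM, and of the gamma-secretase genes Psenen had 64.6, 56.9 and 64.4 FPKM, Ncstn 17.5, 18.6 and 18.7 FPKM and Psen2 9.48, 9.70 and 9.57 FPKM. The amyloid-degrading enzymes Ide (29.4, 28.1 and 31.8 FPKM) and Mme (0.23, 0.13 and 0.61 FPKM) were far apart. Mapt, which encodes tau, had 38.5, 39.1 and 36.1 FPKM.

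Sterol-handling genes, which include the target of the drug given to the other group, held 0.196% ± 0.0101. Apoe, which is also on the Müller glial list, made up 0.122% of the summed FPKM by itself. Cyp46a1, which turns cholesterol into 24-hydroxycholesterol, had 7.27, 6.49 and 6.72 FPKM, near the median gene. Cyp27a1, the sterol 27-hydroxylase, had 3.22, 3.18 and 3.65 FPKM and lay below Cyp46a1 in every pool, and Cyp11a1 was at 0.10, 0.14 and 0.18 FPKM. Of the synthesis genes Sqle had 22.9, 20.5 and 22.1 FPKM and Cyp51 16.2, 14.7 and 14.9 FPKM. The transcription factor Srebf2, which drives this pathway, had 34.0, 33.9 and 36.7 FPKM. Among exporters Abcg1 (22.4, 22.7 and 25.5 FPKM) was above Abca1 (5.90, 6.23 and 8.06 FPKM), and of the liver X receptors Nr1h2 (42.8, 39.4 and 40.4 FPKM) was above Nr1h3 (1.98, 1.83 and 1.80 FPKM).

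Vascular growth genes held 0.104% ± 0.00237. Vegfa had 60.1, 62.1 and 57.3 FPKM and Hif1a, the hypoxia-responsive factor, 150, 155 and 154 FPKM, whereas Vegfc (1.16, 1.05 and 1.08 FPKM) and Pgf (0.37, 0.28 and 0.48 FPKM) were low. Circadian clock genes held 0.135% ± 0.00261 with a median CV of 3.38%, and the output genes Nr1d1 (109, 118 and 115 FPKM) and Dbp (109, 104 and 107 FPKM) differed little between pools. Per1, which is also induced by light and activity, was the most variable at 21.0, 19.5 and 26.8 FPKM. The Y-linked genes Ddx3y (10.7, 10.4 and 10.8 FPKM), Eif2s3y (32.9, 30.7 and 30.4 FPKM), Kdm5d and Uty were detected in all 3 pools, which came from male mice.

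Some abundant genes have provider regions or gene copies of like sequence, between which reads could be divided, so their own values are uncertain. Read assignment itself was not tested. BGI_novel_G000916, whose protein match is GAPDH, had 3049, 2762 and 2234 FPKM, while Gapdh ran the other way with 1165, 1428 and 1688 FPKM. Their sum was 4214, 4190 and 3923 FPKM, with a CV of 3.94% against 15.4% and 18.3% for the single entries. Atp6v0c, a proton pump subunit, had 329, 232 and 177 FPKM in controls 1, 2 and 3 while BGI_novel_G001361 had 208, 293 and 336 FPKM, and the CV of their sum was 2.30%. Rps2 and BGI_novel_G001725 showed the same opposition. Of 9 such region and gene pairs, chosen after their values were seen, the sum was steadier than both entries in 7. No share over other pairs was computed, so this count has no baseline.

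Gene copies, also chosen after their values were seen, behaved alike. Tmem254c had 7.44, 0.30 and 0.57 FPKM where Tmem254b had 0, 4.97 and 5.45 FPKM, and their sum was 7.44, 5.27 and 6.02 FPKM. Eif3j2 had 1.2, 0.11 and 3.78 FPKM against 16.3, 16.5 and 12.8 FPKM for Eif3j1, and the CV of their sum was 3.28%. The 8 genes of the reference list held 0.776% ± 0.0609 with Gapdh and 0.378% ± 0.0161 without it. Ppia had 786, 677 and 724 FPKM and Actb 197, 192 and 203 FPKM.

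**Figure D4:**
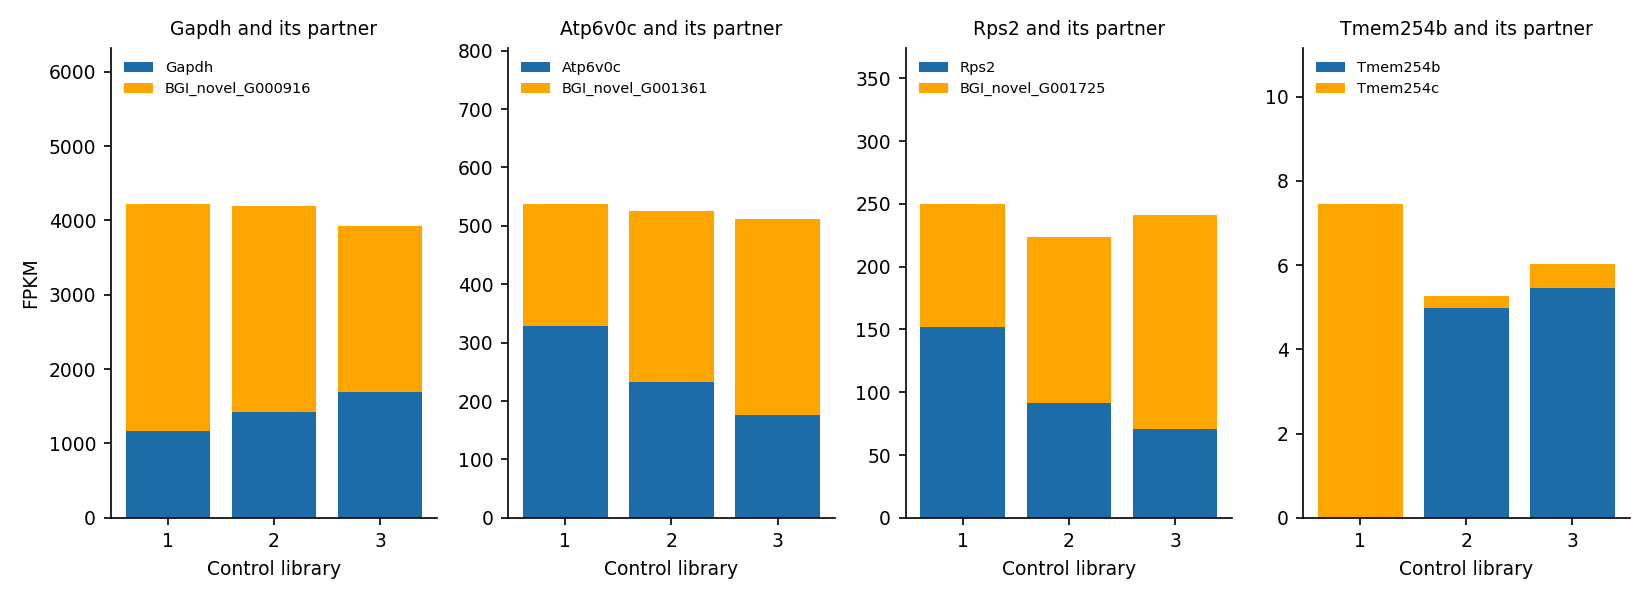
Stacked FPKM in controls 1, 2 and 3 of Gapdh, Atp6v0c, Rps2 and Tmem254b (blue) and of the provider region or gene copy paired with each (orange), with each vertical axis starting at 0. The blue and orange parts move in opposite directions, except that both Tmem254 entries rise slightly from control 2 to control 3. The totals differ less between libraries than the parts, for example 4214, 4190 and 3923 FPKM for Gapdh with its region.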

How the data were processed

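RNA from pooled retinas with RPE was measured by poly-A selected RNA sequencing at BGI on the DNB platform. The authors deposited, for each library, an expected count, a gene length and an FPKM per gene, aligned to mm10. HISAT2 2.0.4, Bowtie2 2.2.5 and RSEM 1.2.12 are named in the submitters' processing notes without a role. Strandedness and annotation release are not given in the sources used here. The deposited FPKM values were used for levels, ranks and shares, and the deposited expected counts, rounded to whole numbers, for depth and for the biological coefficient of variation (edgeR 4.0.16 common dispersion, TMM scaling, at least 10 counts in at least 2 libraries, with R 4.3.3). DESeq2 1.42.0 and 2 other scalings were tried as alternatives. The calculations were tested on simulated data. There the common dispersion was recovered when all genes varied alike and was too high when a small set of very variable genes was added, so it was also computed without the lens genes. Python 3.11.15 with pandas 2.3.3 and numpy 2.4.6 was used for the rest. Between 23455201 and 24590307 expected counts per library set the precision, and counting error was taken as Poisson. The 3 control libraries were grouped by their labels, the other 3 libraries were left out, and no test between groups was made. Labels do not say whether a replicate number has a further meaning.

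Gene lists numbered 37, of which 1, the mitochondrially encoded genes, found no gene by symbol. The members and lists were chosen with earlier results of these data known. Genes were named if they were in the top 25 by mean FPKM, among the 4 most abundant of a list, at 0 in a library on a short list, among the 8 most divergent of a library in either direction, among the 10 with the smallest CV at or above 10 FPKM, on the rod, RPE, lens, sterol, amyloid, immediate-early, clock or sex-check lists, near the median, or among the 5 most abundant genes on no list. Other genes of the lists named in the text were picked for their known role after their values were seen, as were the pairs of regions and genes. Promoter windows came from RefSeq GRCm38.p6, the first window per gene, and TAATCC was searched on both strands. Some genes that this rule selects are not reported here.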

Additional observations from a re-analysis of the deposited data

How the results depend on the processing

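With 3 libraries of 1 group, only description was possible. The number of included genes stayed within 1.5 times of 17152 under each alternative tried and was 17413 to 17447 when any 1 library was left out. The 100 most abundant genes held 24.9% of expected counts and 24.8% of the FPKM of genes with an Entrez identifier, against 26.2%, and 26.1% to 26.4% when any 1 library was left out. The rod list held 7.87% of expected counts and 9.29% over genes with an Entrez identifier, against 8.83%, and 8.69% to 8.93% when any 1 library was left out. It ranked first of the class lists by each measure tried. Of 35 other lists, 28 moved when expected counts, which are not corrected for length, took the place of FPKM, among them red blood cell (0.0528% to 0.0103%), RPE (0.0251% to 0.0142%), cone (0.285% to 0.173%), microglia (0.0110% to 0.00673%), reference (0.776% to 0.381%), other myeloid (0.00108% to 0.000438%), vascular growth (0.104% to 0.166%), horizontal (0.00919% to 0.0144%) and endothelium (0.0196% to 0.0293%), and the cytosolic ribosomal and respiratory chain lists as given above. Its share with 1 gene left out is not reported here. The biological coefficient of variation was 0.107 and ran from 0.0675 to 0.107 when any 1 library was left out. It moved by more than the SD of those leave-one-out values to 0.0795 with at least 100 counts in each library and to 0.0840 with DESeq2. It also moved to 0.0828 without the lens genes and Cryab, an alternative added after the data were seen. It stayed within that SD at 0.117 with no filter and at 0.0916 for genes with an Entrez identifier. No paired analysis was possible because only 1 group was used.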

Other observations

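Gene families that the cell class lists did not cover were present to very different degrees. Over all genes listed in a control library, 17152 of 18964 were included. Of 102 olfactory receptor genes listed in a control library, 23 were above 0 in all 3 pools, with a median of 0.143 FPKM, and Olfr613 was the highest of them at a mean of 8.74 FPKM. Vomeronasal receptors gave 23 of 68 with a median of 0.117 FPKM. Of the zinc finger genes with a Zfp symbol that were listed in a control library, 381 of 382 were included. Their median was 5.31 FPKM, and Zfp385a led them at 437 FPKM. All 22 listed protocadherin gamma genes were included, each at or above 1 FPKM on average. Potassium channel genes gave 85 of 92, near the share over all listed genes, and were led by Kcnj14 at 232 FPKM.

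By the annotation terms in the deposited tables, visual perception covered 108 included genes, or 0.630% of them, and 8.65% ± 0.578 of the summed FPKM. In the paper the same term holds lens genes such as Crybb1, Bfsp2 and Mip, which were highest in control 3. The part of lens RNA in this SD was not tested. Mitochondrion covered 1402 genes and 14.0% ± 0.182, synapse 219 genes and 2.05% ± 0.0331, angiogenesis 180 genes and 0.934% ± 0.0151, and inflammatory response 178 genes and 0.455% ± 0.00969. Provider regions, which were 1430 of the included genes, held 4.94% ± 0.255, or 2.01% ± 0.110 without the 3 most abundant.

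The letters TGCTGA, the core of the NRL motif, were found on either strand in 19.1% of all promoter windows, in 23.1% of the 39 photoreceptor windows and in 12 of 18 lens windows (66.7%). TAATCC was found in 2 of the 18 lens windows.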
